A study of Mus musculus with 6 samples.

Results

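The genes described here build and bind the basement membrane of the embryonic kidney: the laminin chains, the nidogens, perlecan (Hspg2), agrin, nephronectin and dystroglycan, the Fras/Frem proteins, and the integrin alpha and beta chains. The members were 35 named genes, and a probe set belonged to a member if that member was its single gene symbol in the annotation of the array platform. All 35 were on the array, with 84 of its 45101 probe sets. Of these, 54 probe sets of 28 members were bright enough to be tested, among 22519 probe sets of 11581 genes with a unique symbol. A gene with several tested probe sets is given by its brightest, and the others are named where they differ.

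Whole kidneys of C57BL/6 mouse embryos at embryonic day 12.5 were measured, 3 wild-type and 3 Ret-deficient, each sample on its own Affymetrix array. Ret is the receptor through which GDNF from the mesenchyme drives growth and branching of the ureteric bud, and the comparison asks which transcripts differ when it is lacking. The titles and the genotype label call the kidney Ret-deficient, while the source label places the knockout in the pregnant female, and the former was followed. Which Ret allele was used, and whether a sample was 1 kidney or several from 1 litter, is not in the labels, so p-values here measure the spread between these 6 samples. The values are MAS5 signals, a linear brightness per probe set, and differences are given as Ret-deficient minus wild-type on the scale log2(signal + 16), which understates the change of dim probe sets.

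Laminins are trimers of an alpha, a beta and a gamma chain that polymerize into the basement membrane, and nidogens, perlecan and agrin bind to that network. Integrins are heterodimers that anchor cells to it and signal from it, with alpha3beta1 and alpha6 integrins binding laminin. In the early kidney nephronectin lies in the basement membrane of the ureteric bud and binds integrin alpha8beta1 on the facing mesenchyme, a contact that is needed for normal Gdnf expression. Fras1, Frem1 and Frem2 assemble into a complex beneath embryonic epithelia, and loss of any of them can cause kidney agenesis.

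Ret itself read 13315, 11042 and 10193 in wild-type kidneys and 93.3, 479.8 and 334.1 in Ret-deficient kidneys, with all Ret-deficient arrays far below all wild-type arrays, as labelled. Even this difference (-5.43, SE 0.53) had a limma adjusted p of 0.51. The Ret-deficient kidneys were not alike. The summed signal of 15 markers of the ureteric epithelium was 87112, 99231 and 96220 in wild-type replicates 1 to 3 and 8550, 67654 and 53669 in Ret-deficient replicates 1 to 3. In Ret-deficient replicate 1, 6 of the 15 markers were not above the brightest bacterial control probe set, the gauge of background used here, against 0 to 2 on the other arrays. Ret is 1 of the 15, and the sum of the other 14 was 73797, 88189 and 86027 against 8457, 67174 and 53335. In Ret-deficient replicate 2 Epcam, Krt18, Wnt9b, Wnt11 and Spint1 read above every wild-type array. Cdh1, Gata3, Calb1, Tfap2b, Cldn3, Cldn7 and Ret read below every wild-type array there. Wnt11 read highest of all in Ret-deficient replicate 1 (756.8). The sum of 10 renal stroma markers was 117847 to 140970 in wild-type and 141980 to 156092 in Ret-deficient kidneys, without overlap but by a narrow margin. Bright genes weigh most in such a sum, and Col3a1, among the brightest of these, overlapped between the groups. It read 31204.4, 23019.3 and 29038.5 against 43178.7, 39829.4 and 30430.5. The sum of 10 nephron progenitor markers overlapped (53604 to 65679 against 48745 to 62784), as did those of macrophage markers (20142 to 31494 against 25931 to 71575) and neural crest markers (10624 to 15351 against 7902 to 12932). Of 3 tested neural crest markers Sox10 read lower without overlap (-1.47, limma adjusted p = 0.867), and Hand2 (-1.11) and Ednrb (0.13) overlapped. Ednrb read 10907.1 in Ret-deficient replicate 3 and 5163.3 to 6349.7 on the other arrays. In RNA of whole kidneys, fewer cells of a type and less RNA per cell cannot be told apart. Wild-type replicate 1 stood apart in another way: its ratio of 3 prime to 5 prime signal was 10.69 for beta-actin and 4.91 for Gapdh, against 3.88 to 5.21 and 1.86 to 2.31 on the other arrays. A high ratio means that probes far from the 3 prime end of the transcript read low. Where this array moves a member's difference by more than 1.5 times, the value without it is given too.

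**Figure D1:**
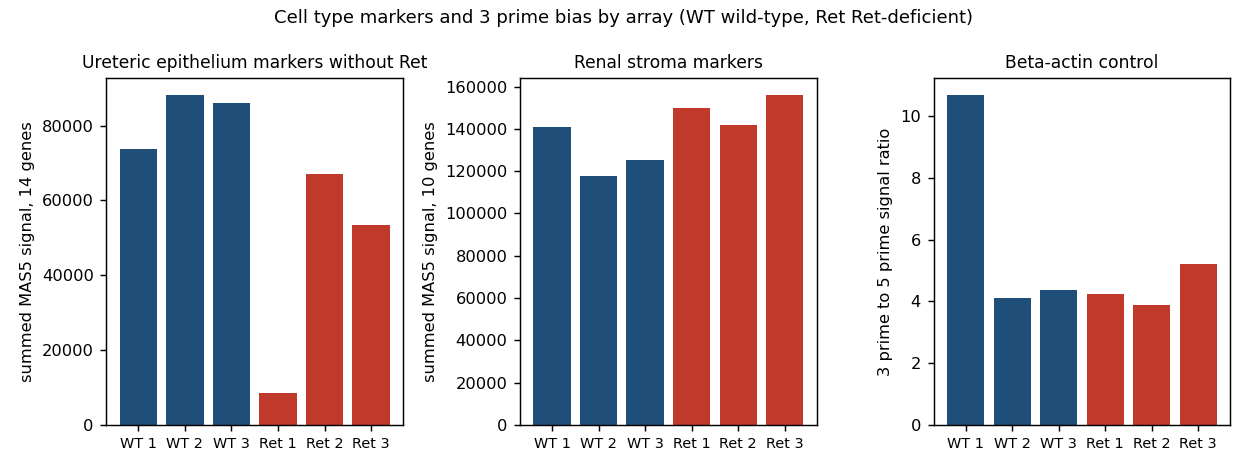
Bars give the summed MAS5 signal of the markers of ureteric epithelium without Ret (14 genes) and renal stroma (10 genes), and the 3 prime to 5 prime signal ratio of the beta-actin control, on each of the 6 arrays (blue wild-type, red Ret-deficient). Ret-deficient replicate 1 has the lowest epithelial sum, at 8457, and wild-type replicate 1 the highest actin ratio, at 10.69.

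None of the 28 tested members reached an adjusted p under 0.05 by limma, and over the array 0 of 22519 probe sets did (0.0%), while 1209 (5.37%) had an unadjusted p under 0.05. The lowest adjusted p among the members was 0.867, for Frem2. At an unadjusted p under 0.05 there were 4 members, with Lamb2 higher and Frem2, Itga3 and Npnt lower in Ret-deficient kidneys, or 14.3%, against 5.55% of all genes tested (3.03% higher and 2.52% lower). Groups without overlap were seen in 3 of the 28 members (Lamb2, Frem2 and Itga3), or 10.7%, against 11.8% of all genes tested (6.02% higher and 5.73% lower). A difference of at least 1.5-fold was seen in 2 members upward (Lamb2 and Lama2) and 4 downward (Npnt, Frem2, Itga3 and Itga4), against 4.41% and 3.92% of all genes tested. The median log2 difference of the 28 members was 0.03, with 16 above 0 and 12 below, and over all genes tested it was 0.003, with 50.5% above 0. The share of members without overlap and their median were near those of all genes, and the values of single members below did not pass the test over the array. The count at an unadjusted p under 0.05 was 2 when wild-type replicate 1 was left out (Hspg2 and Npnt), 2 when Ret-deficient replicate 1 was (Itga3 and Itga4) and 1 when wild-type replicate 3 was (Frem2). In those 3 fits 5.03%, 5.25% and 4.67% of all genes tested had an unadjusted p under 0.05. With 3 arrays against 3 an exact permutation test cannot give a p below 0.1.

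**Figure D2:**
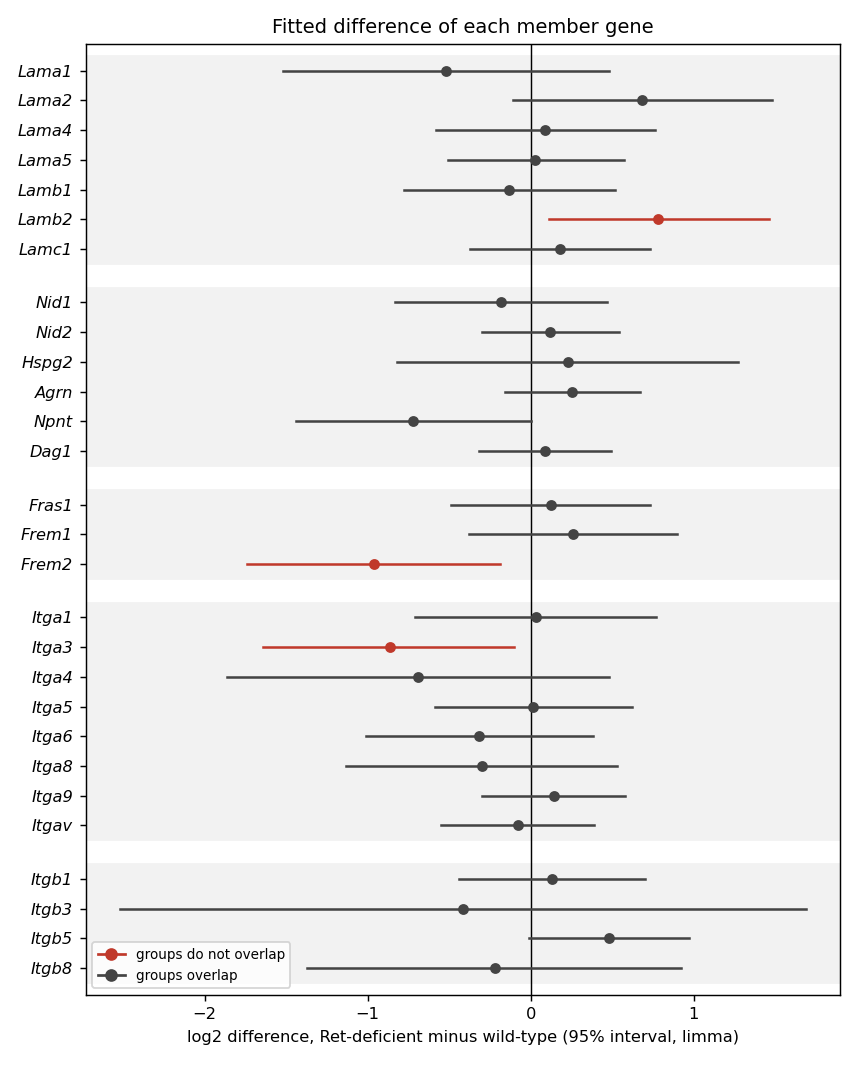
Points give the log2 difference (Ret-deficient minus wild-type) of the brightest tested probe set of each of the 28 members and lines its 95% interval from limma, with laminins, other basement membrane proteins and dystroglycan, Fras/Frem proteins, integrin alpha chains and integrin beta chains in shaded blocks from top to bottom. The differences run from -0.96 for Frem2 to 0.78 for Lamb2, and red marks the 3 members whose groups do not overlap.

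The promoters shown are those of the 4 members at an unadjusted p under 0.05, none of which had a limma adjusted p under 0.05. Each is the 250 bases before the most upstream start in RefSeq's table for GRCm38.p6, in which 24 of the 35 members were found. Npnt lies at chr3:132950292-132950541 (minus strand), Frem2 at chr3:53657356-53657605 (minus strand), Itga3 at chr11:95076715-95076964 (minus strand) and Lamb2 at chr9:108479612-108479861 (plus strand). Capitals mark matches, on either strand, to 4 motifs of factors active in the ureteric bud or at many promoters, none of which contains another. CCGGAA is the core bound by ETS factors, among them the Ret-responsive Etv4 and Etv5. AGATAA is bound by GATA factors such as Gata3. GTTAAT is part of the site of HNF1 factors. GGGCGG is the GC box. Of 32851 promoter windows of this length, 12.0% held the ETS core, 9.99% the GATA motif, 6.43% the HNF1 motif and 32.7% the GC box.
Npnt: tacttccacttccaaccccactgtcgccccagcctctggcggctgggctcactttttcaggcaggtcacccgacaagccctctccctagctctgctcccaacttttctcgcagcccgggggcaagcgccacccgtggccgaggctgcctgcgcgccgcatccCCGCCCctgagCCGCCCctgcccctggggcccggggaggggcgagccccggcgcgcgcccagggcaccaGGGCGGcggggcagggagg
Frem2: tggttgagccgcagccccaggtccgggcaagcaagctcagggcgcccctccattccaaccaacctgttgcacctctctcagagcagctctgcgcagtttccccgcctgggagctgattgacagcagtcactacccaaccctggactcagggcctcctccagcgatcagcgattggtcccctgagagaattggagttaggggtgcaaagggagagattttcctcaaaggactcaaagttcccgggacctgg
Itga3: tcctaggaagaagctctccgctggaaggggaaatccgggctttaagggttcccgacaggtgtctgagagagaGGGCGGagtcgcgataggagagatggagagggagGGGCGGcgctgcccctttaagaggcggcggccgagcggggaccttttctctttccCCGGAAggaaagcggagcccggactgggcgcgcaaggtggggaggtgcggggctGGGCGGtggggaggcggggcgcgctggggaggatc
Lamb2: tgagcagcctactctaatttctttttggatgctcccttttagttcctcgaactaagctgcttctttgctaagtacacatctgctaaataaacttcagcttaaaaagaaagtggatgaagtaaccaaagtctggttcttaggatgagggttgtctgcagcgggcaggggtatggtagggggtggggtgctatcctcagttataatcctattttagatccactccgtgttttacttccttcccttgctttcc
The window of Itga3 held 1 ETS core and 3 GC boxes and that of Npnt held 3 GC boxes, while those of Frem2 and Lamb2 held no match. The share of G and C was 74.0% for Npnt, 67.6% for Itga3, 59.6% for Frem2 and 43.6% for Lamb2. A match is a description of the letters in the window and does not show a binding site.

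Nephronectin, the bud's ligand for integrin alpha8beta1, read lower in Ret-deficient kidneys. Npnt read 5637, 7032 and 8919 in wild-type replicates 1 to 3 and 3109.9, 6241 and 4050.0 in Ret-deficient replicates 1 to 3, or 7196 ± 1647 against 4467 ± 1606 (mean signal ± SD, n = 3 per group). Ret-deficient replicates 1 and 3 lay below every wild-type array and replicate 2 lay between wild-type replicates 1 and 2, so the groups overlapped. The log2 difference was -0.72 (SE 0.30; limma adjusted p = 0.921). A second bright probe set read 2749.7, 6108 and 6412 against 2412, 3746 and 2576, a difference of -0.73, and 2 dimmer ones had -0.38 and -0.22. In those 2 Ret-deficient replicate 2 was the highest of all 6 arrays, at 2089 and 1680.4. With Ret-deficient replicate 1 left out the difference was -0.49, with replicate 2 left out -0.99, and with the mean of the probe sets -0.51. Npnt thus was lowest in the Ret-deficient kidney with the lowest sum of ureteric epithelium markers without Ret (8457) and highest in the Ret-deficient kidney with the highest sum (67174), and the part of these markers in the result was not tested.

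The receptor subunits did not show the same order. Itga8, the mesenchymal integrin chain that binds nephronectin, read 4501, 5677 and 4163 in wild-type and 2752, 3127 and 6601 in Ret-deficient kidneys. Ret-deficient replicates 1 and 2 lay below every wild-type array and replicate 3 lay above every wild-type array, so no common direction was seen (log2 difference -0.30, SE 0.35, 95% interval -1.13 to 0.53, limma adjusted p = 0.961). It was -0.69 when Ret-deficient replicate 3 was left out and -0.06 when replicate 1 was. A dimmer probe set of Itga8, below the brightness filter, ran 274.1, 299.3 and 242.8 against 117.4, 93.7 and 246.3, again lowest in Ret-deficient replicates 1 and 2, where it was not above the control. Itgb1, its beta partner and that of most laminin and collagen receptors, read 4782, 6383 and 7347 against 8359, 6318 and 5555, with a log2 difference of 0.13 (95% interval -0.44 to 0.70), and -0.04 without wild-type replicate 1. Its next brightest probe set had the same difference of 0.13, and the 2 dimmest tested ones 0.32 and -0.46. Gdnf, the ligand gene downstream of this contact, read 2777, 4442 and 3317 in wild-type and 1772, 1698 and 1799.9 in Ret-deficient kidneys. All Ret-deficient arrays lay below all wild-type arrays and close together (log2 difference -0.97, SE 0.21, limma adjusted p = 0.867). Gdnf is 1 of the 10 nephron progenitor markers, whose median difference was -0.02. Of these 10, Gdnf and Tmem100 alone had groups without overlap, against 11.8% of all genes tested. A link of the Gdnf values to those of Npnt and Itga8 was not tested.

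**Figure D3:**
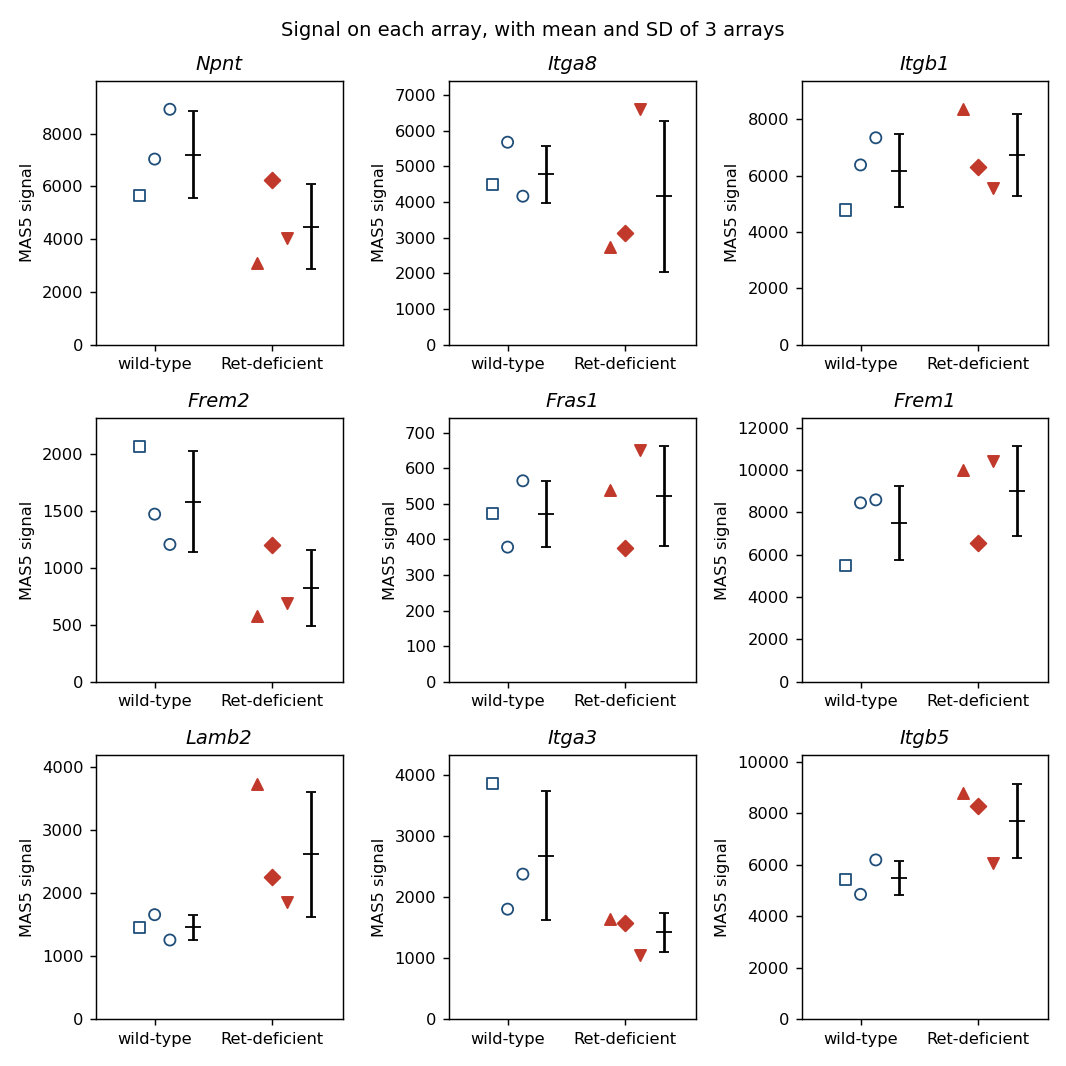
Each panel gives the MAS5 signal of 1 gene on the 6 arrays (open blue wild-type, with a square for replicate 1; red Ret-deficient, with a triangle pointing up, a diamond and a triangle pointing down for replicates 1, 2 and 3), and the bars beside the points give the mean ± SD of 3 arrays. The groups separate in Frem2, Lamb2 and Itga3 and overlap in the other panels, and Itga8 in Ret-deficient replicate 3 reads 6601 where the other Ret-deficient arrays read 2752 and 3127.

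Among the Fras/Frem genes only Frem2 had groups that did not overlap. Frem2 read 2062, 1469 and 1203 in wild-type and 575.0, 1195 and 693.1 in Ret-deficient kidneys, or 1578 ± 440 against 821 ± 329. The margin was narrow, since Ret-deficient replicate 2 lay just under wild-type replicate 3. The log2 difference was -0.96 (SE 0.33, 95% interval -1.74 to -0.19), the largest in size among the 28 members, with limma adjusted p = 0.867. It was -0.75 without wild-type replicate 1 and -1.26 without Ret-deficient replicate 2. As for Npnt, Ret-deficient replicates 1 and 3 read lowest, the 2 arrays with the lowest sums of ureteric epithelium markers, whose part in the result was not tested. Fras1, the partner that is bound in the same membrane complex, read 473.8, 378.3 and 564.6 against 538.2, 375.0 and 652.3, with a log2 difference of 0.12 (95% interval -0.49 to 0.73). Frem1, the secreted member of the complex, read 5476, 8444 and 8587 against 9993, 6560.2 and 10421, with a difference of 0.26 (95% interval -0.38 to 0.90). The value for Frem1 was 0.05 without wild-type replicate 1, its lowest array, 0.03 with array quality weights, and 0.47 when Ret-deficient replicate 2 was left out. Both overlapped between the groups. In Fras1 and Frem1 Ret-deficient replicates 1 and 3, the arrays with the lowest Frem2, read higher than replicate 2. A dimmer probe set of Fras1, below the filter, read 479.9, 244.5 and 194.4 against 20.4, 256.1 and 515.4, lowest in Ret-deficient replicate 1.

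Of the 10 laminin chains 7 were tested, with a median log2 difference of 0.09, 5 above 0 and 2 below. Lamb2, the beta2 chain of maturing basement membranes such as that of the glomerulus, read 1457, 1655 and 1253 in wild-type and 3737, 2249 and 1854 in Ret-deficient kidneys, or 1455 ± 201 against 2613 ± 993. Every Ret-deficient array lay above every wild-type array, and replicate 1 lay farthest. The log2 difference was 0.78 (SE 0.28, 95% interval 0.11 to 1.46), with limma adjusted p = 0.914, and it was 0.49 with Ret-deficient replicate 1 left out and 1.0 with replicate 3 left out. Lama2, the alpha2 chain known from muscle and mesenchymal basement membranes, read 2111, 1199 and 2221 against 3965, 2030.2 and 2929. Ret-deficient replicates 1 and 3 lay above the wild-type arrays and replicate 2 within them (log2 difference 0.68, 95% interval -0.11 to 1.48, limma adjusted p = 0.932), with values of 0.40 without wild-type replicate 2 and 0.45 without Ret-deficient replicate 1. The sum of renal stroma markers was also higher in all 3 Ret-deficient kidneys, by a narrow margin (at least 141980 against at most 140970). Of its 10 markers 7 had a difference above 0, against 50.5% of all genes tested, and Pdgfra, Meis1 and Alx1 had one below 0. In 3 the groups did not overlap (Foxd1 at 0.93, Meis2 at 0.14 and Dcn at 1.2), against 11.8% of all genes tested. The sum was highest in Ret-deficient replicate 3 (156092), and Lamb2 and Lama2 were highest in replicate 1. The part of the stroma markers in the values of Lamb2 and Lama2 was not tested.

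The chains of laminin-111 and laminin-511, the early epithelial laminins, overlapped between the groups. Lama1, the alpha1 chain that appears where mesenchyme turns into nephron epithelium, read 4569, 2951 and 2308 against 3609, 2255 and 1283 (log2 difference -0.52, 95% interval -1.52 to 0.48), with -0.25 when wild-type replicate 1 was left out and -0.14 when Ret-deficient replicate 3 was. Without Ret-deficient replicate 1 it was -0.88 and the groups did not overlap (limma adjusted p = 0.925), as in 21.2% of all genes tested. Its lowest value was in Ret-deficient replicate 3. Lama5, the alpha5 chain of the ureteric bud and collecting duct, read 1065, 727.7 and 775.7 against 920.4, 1009.6 and 688.1 (0.03, 95% interval -0.51 to 0.57, and 0.19 without wild-type replicate 1), and a dimmer probe set had -0.27. Lamb1, the beta1 partner, read 17773, 10479 and 9120.3 against 12227, 10324 and 10213. Without wild-type replicate 1, by far the highest, its difference went from -0.13 to 0.15. The other tested probe sets of Lamb1 had -0.36 and 0.42. Lamc1, the gamma1 chain shared by most laminins, read 2862, 4225 and 4892 against 4659.8, 4518 and 4063, and here wild-type replicate 1 was the lowest (0.18, and -0.05 without it). Lama4, the alpha4 chain of vessels, had 0.09, and 0.36 without wild-type replicate 1.

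The remaining basement membrane proteins overlapped between the groups too on their brightest probe sets. Agrn, which encodes the heparan sulfate proteoglycan agrin, read 14509, 12270.3 and 10999.7 against 13722, 15813 and 15325, a log2 difference of 0.25 (95% interval -0.16 to 0.67). Hspg2, the gene of perlecan, read 4653, 1588 and 1727 against 3372, 3009 and 2020.4. Its difference was 0.23 with all arrays and 0.72 (limma adjusted p = 0.939) without wild-type replicate 1, the highest array. A dimmer Hspg2 probe set had 0.39. Nid1, a nidogen that links laminin to collagen IV, read 14863, 7515 and 8707 against 9128, 8083 and 9065, and its difference went from -0.18 to 0.11 when wild-type replicate 1 was left out. Nid2, its relative, had 0.12 (95% interval -0.30 to 0.54). Dag1, which encodes the laminin and agrin receptor dystroglycan, had 0.09 (95% interval -0.32 to 0.49) on its brightest probe set and -0.21 to -0.41 on its 3 others. The groups did not overlap in 1 of those 3, which read 1150.2, 1279.6 and 1252.5 against 1087.8, 1039.8 and 683.9 (-0.41, limma adjusted p = 0.937).

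Among the integrin alpha chains 8 of 10 were tested, with a median log2 difference of -0.19, and without wild-type replicate 1 this median was 0.03. Itga3, whose product pairs with beta1 as a laminin receptor of the ureteric bud and podocytes, read 3861, 1800.4 and 2375 in wild-type and 1641, 1569.9 and 1044 in Ret-deficient kidneys, or 2679 ± 1064 against 1418 ± 326. All Ret-deficient arrays lay below all wild-type arrays, with a log2 difference of -0.87 (SE 0.32, 95% interval -1.64 to -0.10; limma adjusted p = 0.918). It was -0.57 without wild-type replicate 1 and -0.45 when the mean of its tested probe sets was used. A dimmer probe set read 1353, 569.9 and 853.1 against 1368, 741.4 and 614.7 (-0.03), so the tested probe sets of Itga3 disagreed. Another probe set of Itga3, below the filter but above the control on all 6 arrays, read 426.8, 201.5 and 274.9 against 211.3, 199.9 and 200.8 (-0.47). All 3 had a wild-type replicate 1 value well above the other wild-type arrays. The brighter probe set of Itga3 was lowest in Ret-deficient replicate 3, with replicates 1 and 2 near each other (1641 and 1569.9). The dimmer tested probe set was highest of the 6 arrays in Ret-deficient replicate 1 (1368). The part of the ureteric epithelium markers in the values of Itga3 was not tested.

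Itga6, the chain of the laminin receptors alpha6beta1 and alpha6beta4, read 17854 in wild-type replicate 1 and 8670.3 to 9298 on the other 5 arrays, so its difference of -0.32 rested on that array and was 0.01 without it. Itga4, a fibronectin and VCAM1 receptor chain found on mesenchyme and blood cells, read 5747, 2816 and 3917 against 4414, 1219 and 2779.8 (log2 difference -0.69, 95% interval -1.86 to 0.48, limma adjusted p = 0.949). Its lowest value was in Ret-deficient replicate 2, and without that array the difference was -0.19. It was -0.43 without wild-type replicate 1, and the mean of its probe sets gave -0.35. Without Ret-deficient replicate 1 it was -1.11 and the groups did not overlap (limma adjusted p = 0.913), as in 21.2% of all genes tested. Itga5 and Itgav, chains of receptors for fibronectin and other ligands with an RGD sequence, had 0.01 (95% interval -0.59 to 0.62) and -0.08 (95% interval -0.55 to 0.39). Without wild-type replicate 1 they had 0.19 and 0.07. Itga9 had 0.14, and 0.28 without that array, and the collagen receptor chain Itga1 had 0.03, although a dimmer probe set of Itga1 had -0.57.

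Itgb5, which had a like difference on all 4 of its probe sets, encodes a partner of alphav. It read 5410.1, 4846 and 6186 in wild-type and 8797, 8272 and 6082 in Ret-deficient kidneys. Ret-deficient replicates 1 and 2 lay above the wild-type arrays and replicate 3 just below the highest of them. The log2 difference was 0.48 (SE 0.21, 95% interval -0.01 to 0.97; limma adjusted p = 0.921), and its 3 other probe sets had 0.41, 0.43 and 0.47. Itgb3, another alphav partner that is also abundant in platelets and their precursors, read 3632 in wild-type replicate 1, 444.9 and 395.9 in the other wild-type kidneys and 1152, 697.8 and 332.7 in Ret-deficient kidneys. With that 1 array the difference was -0.42, and without it 0.60 (limma adjusted p = 0.985). Itgb8, an alphav partner that takes part in activating TGF-beta, read 1907, 821.5 and 821.2 against 920.6, 541.2 and 1616, a difference of -0.22 that became 0.18 without wild-type replicate 1.

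**Figure D4:**
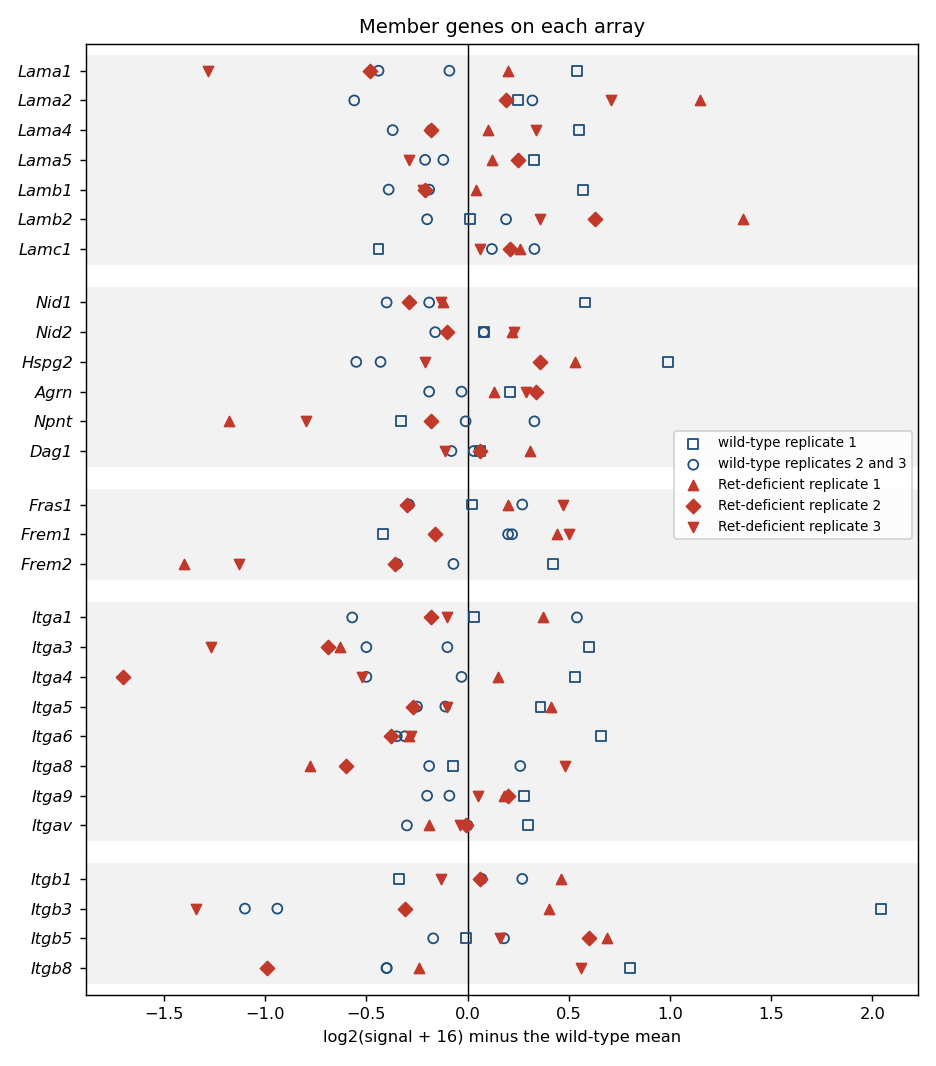
Each row is 1 of the 28 tested members, in the same blocks by role, and each symbol 1 array, placed at its log2(signal + 16) minus the mean of the 3 wild-type arrays. Wild-type replicate 1 (squares) is at the right end of 14 rows, with Itgb3 at 2.04, and Npnt and Frem2 in Ret-deficient replicates 1 and 3 lie between -1.40 and -0.80.

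Wild-type replicate 1 was the highest of the 6 arrays for 14 of the 28 members, against 24.4% of all genes tested. It lay at least 1.5-fold above both other wild-type arrays in 9 members, or 32.1%, against 6.37% of all genes tested. These 9 were Lama1, Lama4, Lamb1, Nid1, Hspg2, Itga3, Itga6, Itgb3 and Itgb8. It was the lowest of the 6 arrays for 3 members (Lamc1, Frem1 and Itgb1), or 10.7%, against 25.9% of all genes tested, so over the whole array it lay about as often at the low end as at the high end. On their brightest probe sets, genes whose products assemble together, such as Lamb1 with Lamc1 or Itga6 with Itgb1, stood at opposite ends on this array. Dimmer tested probe sets did not all keep this order. Of Lamb1, a dimmer probe set was highest of the 6 arrays there (9743.5) and another lowest (426.1). The dimmer Lamc1 probe set read 2232.6 there, against 1106.1 and 1292.0 in the other wild-type kidneys. Of Itgb1, a dimmer probe set was highest there (590.3), while its other tested ones were lowest within wild-type. The median SD of the wild-type log2 values was 0.38 for the members and 0.22 for all genes tested, and among Ret-deficient kidneys it was 0.33 and 0.24. The sums of endothelial markers (44240 against 24385 and 30159 in the other wild-type kidneys), of smooth muscle and ureteric mesenchyme markers (66913 against 28908 and 47664) and of skeletal muscle markers (17992 against 6922 and 8161) were also highest in wild-type replicate 1 within its group. The skeletal muscle sum rested on Actc1, at 13071.5 there against 463.6 and 3012.0. Des, the other tested marker of that list, was lowest there within wild-type (4584.0 against 6281.9 and 4830.5). The part of these markers and of the 3 prime to 5 prime ratio in the values of the members was not tested. Without this array the groups did not overlap in 7 members: Agrn, Hspg2, Itga9 and Lamb2 higher, and Npnt, Frem2 and Itga3 lower. With these 5 arrays 22.5% of all genes tested did not overlap.

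The other 7 members were below the brightness filter, with 10 probe sets that read from 5.8 to 550.4. The brightest bacterial control read 97.2 to 186.9 on the 6 arrays. Lamb3, a chain of laminin-332 of skin, Itga7, a laminin receptor chain of muscle, and Itgb4, the hemidesmosome chain, were not above it on any array. Itga2, a collagen receptor chain, was above it in wild-type replicate 1 alone (188.9). Itgb6, the epithelial partner of alphav, read 28.5, 53.5 and 54.1 in wild-type and 17.7, 134.9 and 25.4 in Ret-deficient kidneys, above the control in Ret-deficient replicate 2 alone, and its other probe set was never above it. The brighter probe set of Lama3, another laminin-332 chain, and both of Lamc3 were above the control on 5 of 6 arrays, with Lama3 at 550.4 in wild-type replicate 1 and 84.0 to 264.7 elsewhere. No fold change is given for these 7 genes. Of the 28 tested members, 14 had several tested probe sets, and in 6 of these (Lama5, Lamb1, Dag1, Itga1, Itga9 and Itgb1) the probe sets differed in sign.

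Other genes of the same pathway were counted in the same way. Their counts stand beside 5.55% of all genes tested at an unadjusted p under 0.05 by limma and 11.8% without overlap. Of 38 genes of the integrin adhesion machinery, such as talins, kindlins, ILK and paxillin, 31 were tested, with a median log2 difference of 0.10. None reached an adjusted p under 0.05 by limma; 1 had an unadjusted p under 0.05. It was Dst, which encodes the cytoskeletal linker dystonin and read 11191, 11134 and 10653 against 14609, 12826 and 16948 (0.42, SE 0.17, limma adjusted p = 0.921). The groups did not overlap in 5 of the 31: Dst and Itgb1bp1 (0.22) higher, and Actn1 (-0.19), Actn4 (-0.16) and Grip1 (-0.17), whose product carries the Fras/Frem proteins to the cell surface, lower. Of 24 other matrix ligands and receptors 19 were tested, with a median of 0.15 and again 1 at an unadjusted p under 0.05. That gene was Col4a5, a collagen IV chain, which read 2453, 3304 and 3128 against 4437, 3529 and 5259 (0.56, SE 0.22, limma adjusted p = 0.921). Groups without overlap were found in 4 of the 19, with Col4a5, Emilin1 (0.49) and Sdc2 (0.44) higher and Emilin2 (-0.55) lower. The main collagen IV chains Col4a1 and Col4a2 had -0.02 and 0.02. Of 15 genes of the dystroglycan complex and its glycosylation 9 were tested, and of 12 laminin, Frem and integrin genes outside the members 3 were tested (Itga2b, Itga10 and Itgae). In both lists none had an unadjusted p under 0.05, and their medians were 0.11 and 0.23. In the dystroglycan list B4gat1 (0.28) and Rxylt1 (0.36) read higher and Dmd (-0.30) lower without overlap, and in the other list all 3 overlapped.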

How the data were processed

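RNA of 3 wild-type and 3 Ret-deficient whole embryonic kidneys was measured, 1 array per sample. What the authors deposited are signal intensities from MAS5, as named in the submitters' processing notes, and they had scaled every array to a common trimmed mean (2500 on each array after 2 percent was trimmed at each end). The design text names amplification with a NuGEN Ovation kit, while the labels' protocol gives the standard Affymetrix cRNA labelling. MAS5's version is not given in the sources used here. Precision is limited by having 3 arrays a group.

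From these, log2(value + 16) was computed. Testing covered 22519 of 45101 probe sets, those that were not controls (64 were) and whose log2 mean over all arrays reached the median of these means. Groups were compared with limma 3.58.1 in R 4.3.3 (lmFit and eBayes, no covariates), with Benjamini-Hochberg adjustment over all tested probe sets, and the code was tested on simulated data. Symbols came from the platform annotation, updated by gene ID through RefSeq (99.42% of 34958 single-symbol probe sets); 932 had several symbols and 9211 none. Background is the brightest of 27 bacterial control probe sets per array. No protein sequences were used here.

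Full values are given for members whose groups do not overlap, with an unadjusted p under 0.05 or a log2 difference of at least 0.58 in size, and for 13 members named by role; others were added to show wild-type replicate 1 and probe sets that agree. Other pathway genes are named where groups do not overlap and the unadjusted p is under 0.05. Some items were added after their values were seen. These were other pathway genes without overlap, Col4a1, Col4a2, the tested genes of the last list and Gdnf. Apart from Ret, the single cell type markers named were added likewise. So were the counts of stroma markers, the nephron progenitor median and the marker sum without Ret. The members and lists were chosen with earlier results of these data known. Alternatives were other pseudocounts, filters and normalizations, a variance trend, array weights, a replicate block, averaging a gene's probe sets, and leaving out each array.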

Additional observations from a re-analysis of the deposited data

How the results depend on the processing

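No member passed an adjusted p of 0.05 under any alternative, and all 4 members at an unadjusted p under 0.05 kept their direction in each alternative in which they were tested. Their number, 4, was 2 with median centring or the mean of probe sets and 1 without the brightness filter, and 1 to 5 with 1 array left out. The number of members whose groups do not overlap, 3, was 3 to 7 with 1 array left out, where fewer samples make separation easier (17.2% to 28.8% of all genes tested, against 11.8%). The members' median stayed between -0.09 and 0.14. Median centring moved the median of all genes to 0.115, against 0.003. Over all probe sets 1209 had an unadjusted p under 0.05, with 2533 under array quality weights, 2265 without the filter, 723 in the brightest 30 percent and 848 to 2114 with 1 array left out. Ret (-5.43, adjusted p = 0.51) passed with a variance trend (-5.43, adjusted p = 0.0165), with median centring (-5.31, adjusted p = 0.047) and without Ret-deficient replicate 1 (-4.78, adjusted p = 0.0263); with 1 array left out it ran from -5.87 to -4.78. Small differences changed sign. Lamb1 was 0.07 with array quality weights and ran from -0.33 to 0.15 (without wild-type replicate 1) with 1 array left out. Lama5 was -0.12 with the mean of probe sets and ran from -0.08 (without Ret-deficient replicate 2 or wild-type replicate 2) to 0.19. Fras1 ran from -0.05 (without Ret-deficient replicate 3) to 0.34, Itgb1 from -0.04 (without wild-type replicate 1 or Ret-deficient replicate 1) to 0.27, Lamc1 from -0.05 (without wild-type replicate 1) to 0.34 and Itga6 from -0.49 to 0.01 (without wild-type replicate 1). Apart from the arrays named, the cause was not tested. Samples with the same replicate number did not deviate together (correlations 0.09, 0.02 and -0.04), and 3 of 6 samples correlated best with their own number. With the replicate number as a block 6 members had an unadjusted p under 0.05, none an adjusted one, and Ret had adjusted p = 0.905.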
